A study of Homo sapiens with 6 samples.

Results

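The immediate early AP-1 and EGR genes are 10 genes: FOS, FOSB, FOSL1, JUN, JUNB, EGR1, EGR2, EGR3, IER2 and IER3. They were chosen by the symbol that the array's probe table gives each probe set, and of the 19775 genes on the array with a probe set of their own 9 were among these 10, with 14 probe sets. No probe set carried the symbol EGR2 in the table used, and that gene was not analysed here. The brightest probe set by mean over all arrays stood for a gene, which left the other 3 JUN and 2 EGR1 probe sets as a check. EGR3 was too dim for the test, so 8 members were tested.

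Total RNA from cultured glioma cells was measured on 6 arrays of 1 colour, 2 per group. U87MG is an established human glioblastoma line, here from a cell repository. U87MGL (non-invasive) and U87MGR (highly invasive) were raised from it through 4 rounds of injection into the striatum of nude mice (BALB/c nu/nu, 6 weeks old), each followed by dissociation of the tumour-bearing brain and culture. All 3 groups were grown in medium with 10% fetal bovine serum and carried no engineered allele or agent in the labels, which do not give the cell density or the time since feeding at harvest. The titles call the arrays biological replicates, but give each derivative array a name of its own. Replicate 1 was U87MGL2 or U87MGR2 and replicate 2 was U87MGL3 or U87MGR3. Whether these names mark separate lines is not stated, so the spread within a derivative may include a difference between lines. The p-values measure the spread among these samples only. VIM and CD44, abundant in U87MG-type cells, were bright on every array (14.3 to 14.5 and 13.0 to 13.3 on the log2 scale). The astrocyte markers S100B and AQP4 lay below the intensity limit of the test (4.73) on every array, as did 3 of 6 microglial, 1 of 5 endothelial, 2 of 4 oligodendrocyte and 0 of 5 neuronal markers. Of the 8 glioma or astrocyte markers, GFAP (5.21 to 5.45) and SOX2 (4.77 to 4.96) lay not far above this limit, and NES read 7.27 to 9.61. The neuronal marker SNAP25 read 9.21 to 9.73. The glial factor SOX9 was the 1 glioma or astrocyte marker called, higher in U87MGR (2.16) and U87MGL (2.30) than in U87MG (limma adjusted p = 0.0239 and 0.0165). Of all genes, 1.86% and 3.02% were called higher in these comparisons. With the spike-in sets described below as a block, limma called 0 of all genes higher in U87MGL against U87MG, so the SOX9 call there was not kept.

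Immediate early genes are transcribed within minutes of a stimulus, such as a growth factor or a stress, from factors already present in the cell. Serum response factor (SRF) with its ternary complex partners, which are substrates of the MAP kinase ERK, drives many of them through CArG boxes, and cyclic AMP response elements add input from CREB. FOS proteins pair with JUN proteins as AP-1, EGR proteins bind GC-rich sites with zinc fingers, and most of these mRNAs are short-lived. In glioma cells AP-1 lies downstream of growth factor receptors and is tied to invasion and mesenchymal traits.

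The regions just upstream of EGR1, FOS and FOSB are shown because these 3 genes varied most among the tested members. Each is the 250 bases before the transcript start in RefSeq (GRCh38.p14), 5′ to 3′ on the plus strand, at chr5:138465229-138465478, chr14:75278578-75278827 and chr19:45467746-45467995, with CArG boxes in capitals.
EGR1: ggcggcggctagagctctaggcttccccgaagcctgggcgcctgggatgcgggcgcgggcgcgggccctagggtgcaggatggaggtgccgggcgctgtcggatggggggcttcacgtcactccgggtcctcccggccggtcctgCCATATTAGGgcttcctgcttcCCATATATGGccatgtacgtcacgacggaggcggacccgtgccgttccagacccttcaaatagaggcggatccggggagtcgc
FOS: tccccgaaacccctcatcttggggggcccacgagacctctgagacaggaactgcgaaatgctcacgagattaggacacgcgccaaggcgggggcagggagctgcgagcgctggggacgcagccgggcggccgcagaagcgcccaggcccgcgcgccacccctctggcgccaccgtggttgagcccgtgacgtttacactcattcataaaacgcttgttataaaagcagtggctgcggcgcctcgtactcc
FOSB: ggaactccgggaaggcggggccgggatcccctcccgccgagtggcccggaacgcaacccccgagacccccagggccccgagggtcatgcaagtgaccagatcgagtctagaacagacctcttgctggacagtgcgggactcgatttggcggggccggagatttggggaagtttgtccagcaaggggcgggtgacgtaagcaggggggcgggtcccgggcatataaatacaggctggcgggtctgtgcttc
By symbol, 6 members were matched to such windows. EGR1 held 2 CArG boxes, at positions -105 to -96 and -83 to -74 from the start, counted so that -1 is the last base before it. The windows of 300 bases (250 before the start and 50 after) were searched on both strands for the CArG box, the TPA response element bound by AP-1 (TGACTCA), the cyclic AMP response element (TGACGTCA) and the EGR1 site. Of all 35116 such windows, 1.29% held a CArG box, 4.95% TGACTCA, 1.85% TGACGTCA and 5.77% an EGR1 site. None of the 4 motifs was found in the windows of FOS, FOSB, JUN, JUNB and IER2. That says only that these letters are not in these windows.

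None of the 8 tested members differed between the groups in limma over all 14513 genes tested, in any of the 3 comparisons. For each of them, the widest gap between replicates of a group was larger than any difference between group means. FOS had the largest within-group SD of all genes tested (2.43 on the log2 scale, against 1.55 for the next gene and a median of 0.19), FOSB ranked 17 (1.20) and EGR1 ranked 49 (0.93). In all, 7 of the 8 members lay among the 10% of genes with the largest within-group SD, all but JUN, which ranked 2816.

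**Figure D1:**
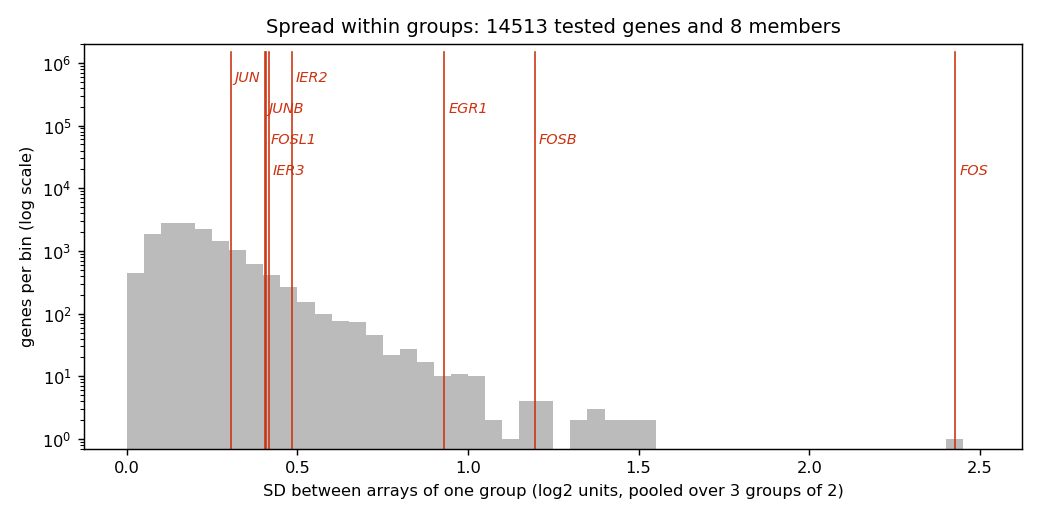
Histogram of the SD between arrays of one group, pooled over the 3 groups, for the 14513 tested genes (x axis in log2 units, y axis genes per bin on a log scale), with red lines at the 8 tested members. FOS stands alone at 2.43, beyond every other gene.

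The spike-in control probe sets part the arrays in another way than the cell groups, and their values belong beside every result here. By 21 spike-in probe sets, both U87MGL arrays and U87MGR replicate 1 formed set A, U87MG replicate 1 and U87MGR replicate 2 formed set B, and U87MG replicate 2 stood alone as set C. Distances were 0.682 to 1.05 within sets and 4.12 to 6.40 between them. The mean of the Bacillus control probe sets was 6.79 to 7.01 in set A, 8.03 to 8.11 in set B and 8.43 in set C. That of the other spike-in probe sets was 10.2 to 10.3 in set A, 9.80 to 9.89 in set B and 10.95 in set C. A probe set for 18S ribosomal RNA read 12.5 on U87MG replicate 2 and 6.00 to 7.98 on the other arrays. The 3′ minus 5′ difference of the GAPDH control, a measure of RNA quality, was 0.24 on U87MGR replicate 2, where FOS, FOSB and EGR1 were highest, and 0.03 to 0.07 on the other 5 arrays. That of actin was -0.01 on U87MG replicate 1 and 0.22 to 0.39 on the others. In U87MGR each replicate also had a name of its own. If the names mark separate lines, line and spike-in set cannot be told apart there. The labels name no batch, and the part of these differences in the results was not tested.

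**Figure D2:**
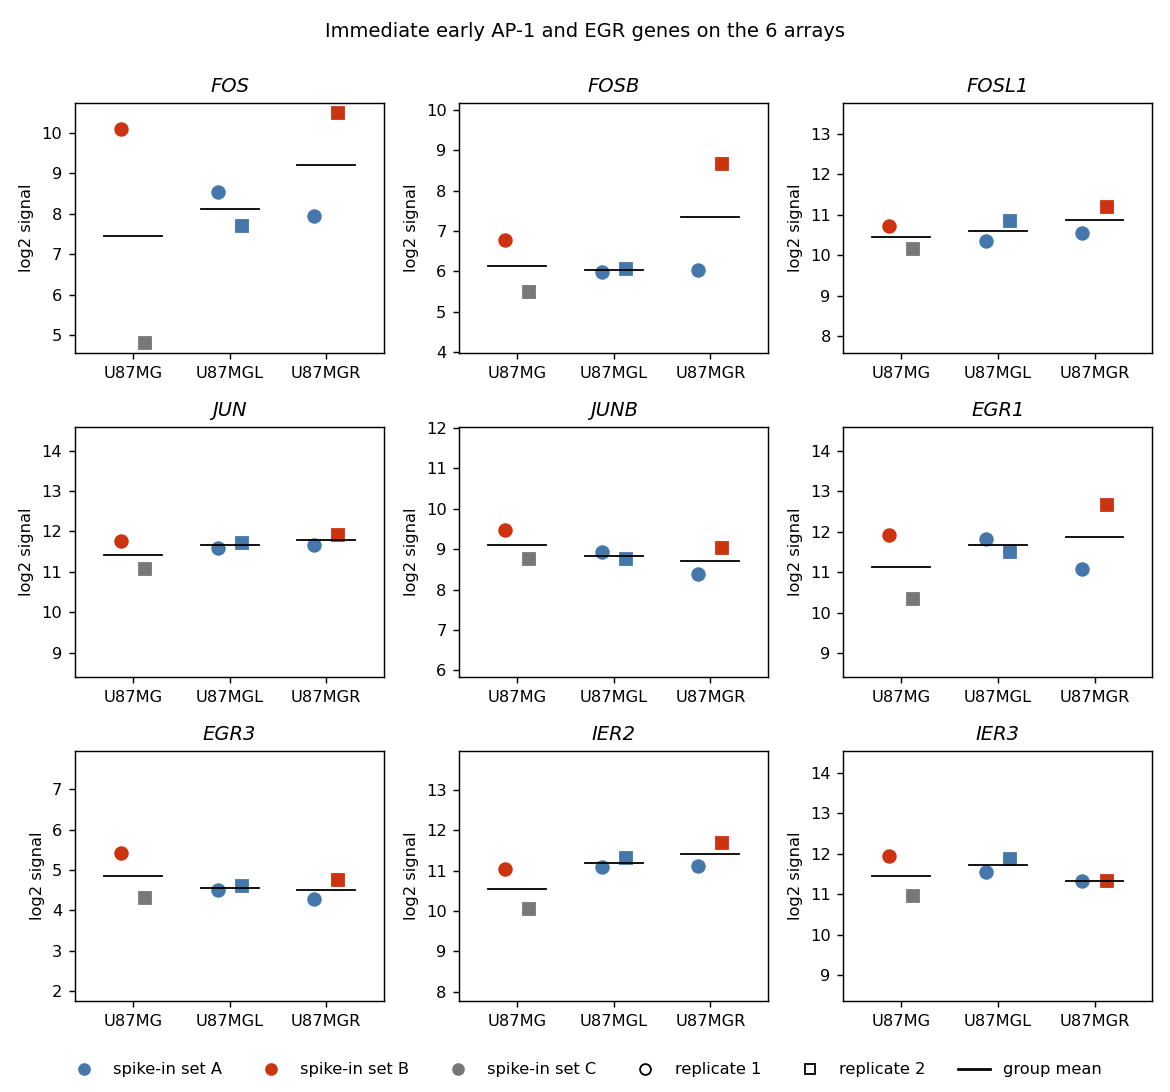
Log2 signal of the 9 measured members in U87MG, U87MGL and U87MGR, 1 panel per gene with axes of equal span. Points are arrays, coloured by spike-in set and shaped by replicate, and lines are group means; FOS runs from 4.79 to 10.5, while JUN runs from 11.1 to 11.9.

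FOS, the founding partner of JUN in AP-1, had log2 signals of 10.10 and 4.79 in U87MG, 8.53 and 7.70 in U87MGL, and 7.94 and 10.50 in U87MGR, replicate 1 first. The parental line thus held both a very low and a very high array, 39.5-fold apart, with both U87MGL arrays between them. The U87MGR arrays were 5.90-fold apart. This difference between U87MG replicates was the largest of any tested gene. The group means were 7.45 ± 3.75 in U87MG, 8.11 ± 0.59 in U87MGL and 9.22 ± 1.81 in U87MGR (SD, n = 2), and no neighbours in this order differed beyond their spread. Inside spike-in sets the arrays of different cell groups lay close: 7.70 to 8.53 in set A, and 10.10 and 10.50 in set B.

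FOSB, a FOS family member with its own short-lived induction, read 6.78 and 5.49 in U87MG, 5.99 and 6.07 in U87MGL, and 6.04 and 8.66 in U87MGR. A single array, U87MGR replicate 2, stood above the other 5, and it was 6.17-fold above its own replicate. The means were 6.13 ± 0.92, 6.03 ± 0.06 and 7.35 ± 1.86 (SD, n = 2) in U87MG, U87MGL and U87MGR. In set A the U87MGR array differed from the U87MGL mean by 0.01, and in set B it lay 1.88 above U87MG replicate 1 (3.68-fold). FOSB was the one member called with 3 spike-in sets as a block, in U87MGR against U87MG (1.88, SE 0.17, limma adjusted p = 0.0391). That fit called 96 of all genes higher in this comparison. It leaves U87MG replicate 2 without influence and has 1 residual degree of freedom.

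FOSL1, which encodes FRA-1, a FOS protein tied to invasive growth, varied less. It read 10.73 and 10.15 in U87MG, 10.35 and 10.85 in U87MGL, and 10.54 and 11.19 in U87MGR. All 3 groups overlapped, with means of 10.44 ± 0.41, 10.60 ± 0.35 and 10.86 ± 0.46 (SD, n = 2).

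JUN, the AP-1 partner of the FOS proteins, had the smallest within-group SD of the 8 tested members (0.30). It read 11.76 and 11.07 in U87MG, 11.60 and 11.72 in U87MGL, and 11.67 and 11.91 in U87MGR. U87MG replicate 2 was the low array and the other 5 lay between 11.60 and 11.91. The 3 dimmer JUN probe sets gave U87MGR minus U87MG differences of 0.35, 0.72 and 0.60 against 0.38 for the brightest, and 1 of them (8.66 and 8.84 in U87MG) did not share the low value of replicate 2. JUNB, a JUN family protein that can restrain JUN, read 9.47 and 8.75 in U87MG, 8.93 and 8.75 in U87MGL, and 8.38 and 9.03 in U87MGR. Its lowest array was U87MGR replicate 1 and its highest U87MG replicate 1, so its groups overlapped.

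EGR1, a zinc finger factor and a standard readout of ERK and SRF activity, read 11.91 and 10.33 in U87MG, 11.84 and 11.51 in U87MGL, and 11.07 and 12.68 in U87MGR. As with FOS, U87MG replicate 2 was lowest and U87MGR replicate 2 highest. The replicates were 3.0-fold apart in U87MG, 1.25-fold in U87MGL and 3.04-fold in U87MGR. The other 2 EGR1 probe sets had the same lowest and highest arrays, with ranges of 2.39 and 4.48 against 2.35 for the brightest. In the dimmest of them U87MG replicate 1 (7.11) lay just below the arrays of set A (7.16 to 7.86), not above them. Inside set A the U87MGR array lay 0.61 below the U87MGL mean, and inside set B it lay 0.76 above U87MG replicate 1.

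EGR3, a related zinc finger factor, had a mean of 4.64, under the limit of 4.73. It read 5.43 and 4.30 in U87MG, 4.51 and 4.60 in U87MGL, and 4.27 and 4.75 in U87MGR. The 2 arrays above the limit, U87MG replicate 1 and U87MGR replicate 2, were those of set B, the latter only just (4.75). Its lowest array was U87MGR replicate 1 (4.27), of set A.

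IER2, a nuclear immediate early protein, read 11.05 and 10.04 in U87MG, 11.08 and 11.31 in U87MGL, and 11.11 and 11.69 in U87MGR. Both derivatives lay above both parental arrays, though U87MG replicate 1 (11.05) was close to the nearest derivative array (11.08). IER3, a stress-inducible regulator of survival and ERK signalling, read 11.93 and 10.97 in U87MG, 11.56 and 11.88 in U87MGL, and 11.33 and 11.32 in U87MGR. Its U87MGR arrays differed by 0.015 and lay below both U87MGL arrays, while the U87MG arrays were the lowest and the highest of all 6.

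Within U87MG and U87MGR the members mostly differed in the same direction, and within U87MGL they did not. All 8 tested members were higher in U87MG replicate 1 than in replicate 2, and 7 of 8 were higher in U87MGR replicate 2 than in replicate 1, against 53.2% and 49.6% of all genes tested. A gap of at least 1 log2 unit in these directions was seen in 4 and 3 members (1.92% and 0.462% of all genes tested). The U87MGL replicates were nowhere so far apart in the members (0.999% of all genes). FOS, FOSB, JUN and EGR1, 4 of 8, had values that did not overlap between the spike-in sets, each with set C lowest and set B highest. Of all genes tested, 20.8% had such separate sets in any order and 3.12% in this order, which was picked after it was seen in the members. Among their dimmer probe sets, 1 of 2 for EGR1 and 1 of 3 for JUN kept that order. None of the 8 had 3 separate cell groups (15.9% of all genes).

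**Figure D3:**
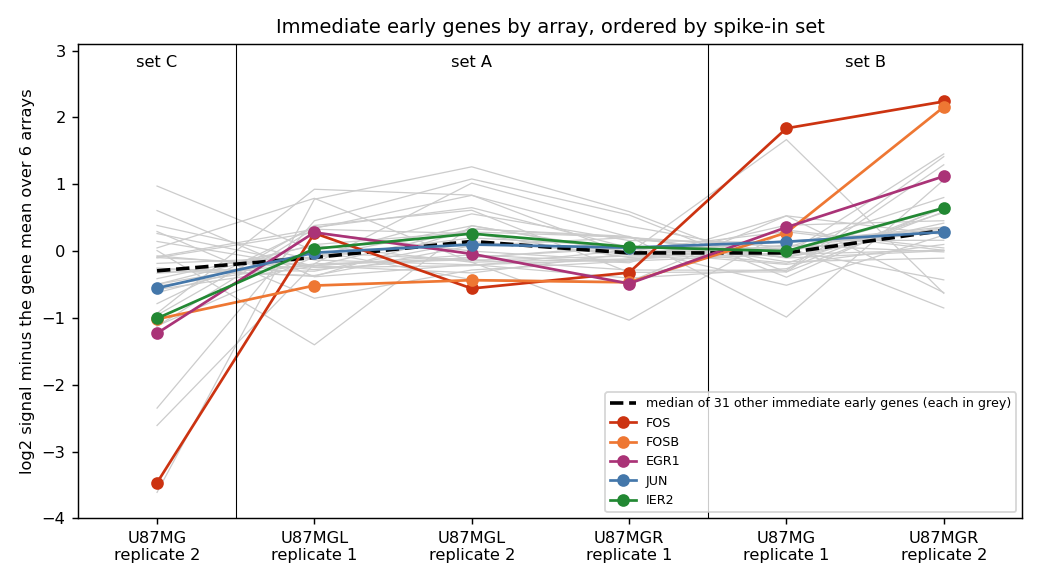
Log2 signal minus each gene's mean over the 6 arrays (y axis), with arrays ordered by spike-in set along the x axis. Coloured lines are 5 members, grey lines 31 other immediate early genes and the dashed line their median; FOS rises from -3.47 on U87MG replicate 2 to 2.24 on U87MGR replicate 2, while the dashed median runs from -0.29 to 0.31.

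U87MGR against U87MGL asks what goes with invasiveness among cells of like history. FOSB differed by 1.32 (SE 0.79, limma adjusted p = 0.682) and FOS by 1.10 (SE 1.59, adjusted p = 0.877). With the 95% interval, FOS could lie anywhere from -2.65 to 4.86, so the arrays bound neither a rise nor a fall of several fold. JUN (0.13, interval -0.45 to 0.71), FOSL1 (0.26, -0.46 to 0.97) and JUNB (-0.13, -0.84 to 0.58) were held within narrower limits. EGR1 differed by 0.20, IER2 by 0.21 and IER3 by -0.39. Of the 8 members limma called 0 higher and 0 lower at the adjusted threshold of 0.05, and 0 at an unadjusted p under 0.05, where 0.0413% and 0.117% of all genes were called higher and lower, and 8.85% passed unadjusted in either direction. IER3 was the 1 member whose groups did not overlap (46.6% of all genes tested). Inside set A, with both U87MGL arrays and U87MGR replicate 1, the 8 differences lay between -0.61 (EGR1) and 0.01. FOS was at -0.18 there and FOSB at 0.01, so the pooled differences of both came from U87MGR replicate 2, the array of set B.

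U87MGR against U87MG asks what the invasive derivative gained or lost from its parent. FOS differed by 1.77 (SE 1.59, limma adjusted p = 0.573), FOSB by 1.22 (SE 0.79, adjusted p = 0.433), IER2 by 0.86 (SE 0.35, adjusted p = 0.221) and EGR1 by 0.75 (SE 0.62, adjusted p = 0.541). FOSL1 was at 0.42, JUN at 0.38, IER3 at -0.12 and JUNB at -0.40. Limma called 0 of 8 in either direction (1.86% of all genes were called higher and 1.44% lower), and IER2 was the 1 member at an unadjusted p under 0.05 (20.8% of all genes). IER2 was also the 1 member with separate groups (48.4% of all genes). Without U87MG replicate 1, IER2 was at 1.36, and only in that fit was it called in limma. That fit leaves 1 parental array and called more of all genes higher than the main fit did. Without U87MG replicate 2, FOS turned to -0.88 and IER2 fell to 0.36. Inside set B the differences lay between -0.61 (IER3) and 1.88 (FOSB), with FOS at 0.40 and IER2 at 0.65.

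U87MGL against U87MG shares the parental arrays with that comparison. FOS differed by 0.67 (SE 1.59, limma adjusted p = 0.835), IER2 by 0.65 (SE 0.35, adjusted p = 0.307) and EGR1 by 0.56 (SE 0.62, adjusted p = 0.636). IER3 was at 0.27, JUN at 0.24, FOSL1 at 0.16, FOSB at -0.10 and JUNB at -0.27. Limma called 0 of 8 members higher and 0 lower (3.02% and 1.8% of all genes), and 0 at an unadjusted p under 0.05 (23.3% of all genes). IER2 again had separate groups (56.4% of all genes). FOS was at 3.32 without U87MG replicate 1 and at -1.98 without replicate 2. No spike-in set held both U87MGL and U87MG.

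**Figure D4:**
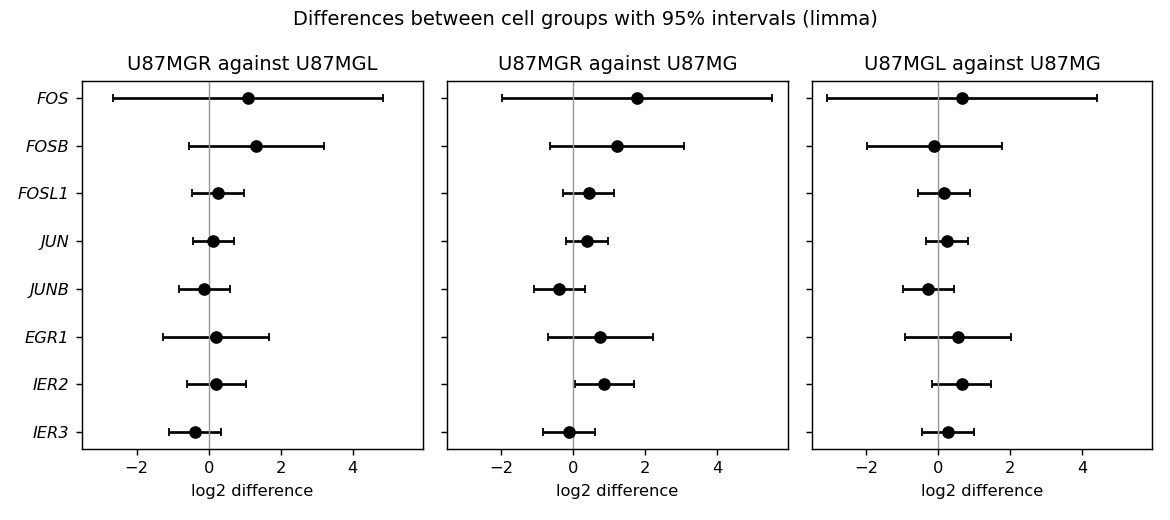
Log2 difference between cell groups (x axis) for the 8 tested members in the 3 comparisons, with 95% intervals from limma as bars. FOS has the widest bars, from -2.65 to 4.86 in U87MGR against U87MGL, and IER2 in U87MGR against U87MG is the 1 bar that misses 0.

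Other genes of the pathway were taken from lists written from textbook knowledge. Of 31 tested other immediate early genes, 14 lay among the 10% with the largest within-group SD, and their median SD was 0.31. CCN1, a matrix protein driven by SRF and YAP and named here after its values were seen, read 9.13 and 5.83 in U87MG, 10.22 and 10.70 in U87MGL, and 10.03 and 10.73 in U87MGR. Both parental arrays lay below the 4 derivative arrays, by far the most on replicate 2, and the set B arrays held its highest value and its second lowest. Between groups, HBEGF, a ligand of the EGF receptor, rose in U87MGL against U87MG (1.15, SE 0.19, limma adjusted p = 0.0237), and IER5L fell in U87MGR against U87MG (-1.29, SE 0.22, adjusted p = 0.0357). These were the only calls among the 31 in the 3 comparisons. Of all genes, 3.02% were called higher in U87MGL against U87MG and 1.44% lower in U87MGR against U87MG. With the mean of a gene's probe sets HBEGF was at 0.41 and IER5L at -1.15, and neither was called. Neither call held with 2 or 3 spike-in sets as a block, with only the 4 arrays compared, or without any 1 array other than U87MG replicate 1. With these blocks limma called 0 of all genes higher in U87MGL against U87MG. In U87MGR against U87MG it called 6 of all genes lower with 2 sets and 135 with 3. The IER5L call was also lost with every probe set tested (limma adjusted p = 0.0548) and with the replicate block (0.0519). The list's median difference was 0.17 in U87MGR against U87MGL, 0.37 in U87MGR against U87MG and 0.21 in U87MGL against U87MG, beside medians of 0.00, -0.01 and -0.02 over all genes. The largest differences in U87MGR against U87MGL were lower, ERRFI1 at -1.34 (limma adjusted p = 0.338) and KLF4 at -0.80 (0.637). At an unadjusted p under 0.05 in limma, 1 of the 31 was higher and 2 lower there (8.85% of all genes passed in either direction). Without U87MG replicate 1, which leaves the array of set C alone for the parental line, 7 of the 31 were called higher and 1 lower in U87MGL (6.08% and 4.6% of all genes). In U87MGR 3 were then called higher and 1 lower (3.35% and 2.69% of all genes).

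Of 11 tested AP-1 and partner bZIP genes none was called in limma. BATF3, an AP-1 partner of lymphoid cells, read 8.11 and 8.24 in U87MG, 8.07 and 8.18 in U87MGL, and 8.63 and 9.01 in U87MGR. It differed by 0.69 from U87MGL (limma adjusted p = 0.299) and by 0.64 from U87MG (0.106). JUND, the JUN protein of resting cells, was at -0.64 in U87MGR and -0.53 in U87MGL against U87MG. At an unadjusted p under 0.05, limma gave 1 higher and 0 lower in U87MGR against U87MGL, 1 and 2 in U87MGR against U87MG, and 0 and 2 in U87MGL against U87MG, where 8.85%, 20.8% and 23.3% of all genes passed in either direction.

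Upstream, 1 of 17 tested SRF, ternary complex and MAP kinase genes was called, in U87MGL against U87MG (3.02% of all genes were called higher there). MAPK8, which encodes the JUN kinase JNK1, rose in U87MGL against U87MG (1.02, SE 0.22, limma adjusted p = 0.0475) and was at -0.65 in U87MGR against U87MGL (adjusted p = 0.439). It was at 0.58 with the mean of its probe sets, and the call was lost in most other fits: with no filter, every probe set, quantile normalization, only the 4 arrays, the replicate block, either spike-in block, or without any 1 array other than U87MG replicate 1. With either spike-in block limma called 0 of all genes higher in U87MGL against U87MG. In the fits without the MAPK8 call its difference lay between 0.58 and 1.13. None of 6 EGR corepressors and JUN ubiquitin ligase subunits was called in limma. COP1, at -0.48 in U87MGR against U87MG, was the 1 value at an unadjusted p under 0.05 in the 3 comparisons. Of all genes, 20.8% passed in that comparison in either direction.

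Downstream, 3 of 14 tested textbook AP-1 targets rose in U87MGL against U87MG (3.02% of all genes did), where none of the tested FOS and JUN genes was called: the collagenase MMP1 (5.81-fold, limma adjusted p = 0.0255), urokinase PLAU (4.11-fold, 0.0258) and its receptor PLAUR (3.29-fold, 0.0203). In U87MGR against U87MG 2 rose (1.86% of all genes did), PLAU (3.87-fold) and PLAUR (2.78-fold, limma adjusted p = 0.0357 for each), and none was called between the derivatives. None was called lower in limma in the 3 comparisons. IL6, an inflammatory cytokine named after its values were seen, was the 1 target lower at an unadjusted p under 0.05, in U87MGL against U87MG. It read 10.73 and 9.25 in U87MG and 7.36 and 9.01 in U87MGL. Of all genes, 23.3% passed that unadjusted threshold in the same comparison in either direction. PLAU read 9.82 and 9.70 in U87MG, 11.22 and 12.38 in U87MGL, and 11.71 and 11.72 in U87MGR, so its U87MG replicates stood together where those of FOS were far apart. With either spike-in block, limma called none of the 14 in either comparison with U87MG. Few genes of any kind were called higher in these fits: 0 of all genes in U87MGL against U87MG with either block. In U87MGR against U87MG 5 of all genes were called higher with 2 sets and 96 with 3. The calls in both comparisons were also lost without U87MG replicate 2 or either U87MGR array. The 3 calls in U87MGL were also lost with only the 4 arrays compared and without U87MGL replicate 2. In U87MGR both calls were also lost with every probe set tested, PLAUR with the replicate block (limma adjusted p = 0.0533) and PLAU without U87MG replicate 1 (0.0554). PLAU stayed between 1.46 and 2.62 in U87MGL and between 1.89 and 2.01 in U87MGR under these and the other fits.

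The genes most like a member were found by the root mean square difference of centred log2 values over the 6 arrays. For FOS they were RHOB, a growth factor-inducible GTPase (1.16), EGR1 (1.21) and FOSB (1.23), all far from it beside its own spread of 1.87. For FOSB the nearest was KLF6, an inducible zinc finger factor (0.47), followed by LINC00922 (0.54) and EGR1 (0.57). For EGR1 they were MAP3K14, the NF-κB-inducing kinase (0.31), TNFAIP2 (0.32) and HYPK (0.33). KLF6 read 10.13 on U87MGR replicate 1 and 11.82 on replicate 2, with the other 4 arrays between 9.89 and 10.28, so it shared the high array of FOSB. Among members the closest pair was FOSL1 and JUN (0.17), whose values ranged over only 1.03 and 0.84 log2 units, against 5.71 for FOS. IER2, FOSL1 and JUNB had nearer matches, MARK2 (0.08), NOL4L (0.08) and TEF (0.07), beside their own spreads of 0.50, 0.34 and 0.33.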

How the data were processed

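The authors deposited log2 signals of 54675 probe sets from biotin-labelled cRNA (5 µg total RNA per sample), per the labels' protocols. Their summary and normalization steps are not given in the sources. The log2 unit was tested on the values, which lay between 2.38 and 14.6 with array medians of 5.29 to 5.35. No further normalization was applied. Of the probe sets, 41097 carried 1 gene symbol, 1801 several and 11777 none. The 41043 matched by gene number took current symbols from RefSeq (GRCh38.p14).

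Genes were tested if their brightest probe set reached, by mean over the 6 arrays, the 40th percentile of all probe sets (4.73). One limma model (version 3.58.1, R 4.3.3) with a mean per group was fitted to all 6 arrays, with 3 residual and 4.05 prior degrees of freedom, Benjamini-Hochberg adjustment and a threshold of 0.05, and was tested on simulated data. Alternatives were other filters and probe set rules, quantile normalization, an intensity trend, fewer arrays and blocks. Spike-in sets came from average-linkage clustering. Replicate numbers were not taken as pairs. All 10 members are named; from other lists, called genes (up to 3 each way) or up to 2 large differences are. The members, lists and sets were chosen with earlier results of these data known. The number of arrays limits precision.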

Additional observations from a re-analysis of the deposited data

How the results depend on the processing

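Across alternatives, 0 members were called in either direction in limma, with 2 exceptions in U87MGR against U87MG, where 1 was called higher: FOSB with 3 spike-in sets as a block, and IER2 without U87MG replicate 1. Leaving out 1 array gave 0 to 1 there and 0 in the other comparisons. With arrays of 2 per group and intervals this wide for FOS, FOSB and EGR1, the absence of calls bounds little.

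Of 240 differences of members refitted without leaving out a replicate, 226 kept direction and side of the threshold, 1 (FOSB) passed it, and 13 turned sign, all with a spike-in block. Of the untested values inside spike-in sets, 4 of 8 turned sign in set A (FOS, FOSL1, EGR1 and IER2, to the values of the block below) and 0 of 8 in set B. In U87MGR against U87MGL, FOS went to -0.18, FOSL1 to -0.067, EGR1 to -0.61 and IER2 to -0.084 with 2 or 3 sets. In U87MGL against U87MG, FOSB went to 2.52 and JUNB to 0.38 with 2 sets, and FOSB to 1.87, JUNB to 0.013 and IER3 to -0.23 with 3; these reach U87MG through the U87MGR arrays.

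Leaving out 1 array turned 18 of 144 signs. The ranges for U87MGR against U87MGL were -0.18 to 2.38 for FOS, -0.067 to 0.58 for FOSL1, -0.45 to 0.20 for JUNB, -0.61 to 1.00 for EGR1 and -0.084 to 0.50 for IER2. For U87MGR against U87MG they were -0.88 to 4.43 for FOS, -0.10 to 2.53 for FOSB, -0.050 to 1.56 for EGR1 and -0.61 to 0.36 for IER3. For U87MGL against U87MG they were -1.98 to 3.32 for FOS, -0.75 to 0.54 for FOSB, -0.12 to 0.45 for FOSL1, -0.10 to 0.59 for JUN, -0.64 to 0.091 for JUNB, -0.24 to 1.35 for EGR1 and -0.22 to 0.75 for IER3.

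Counts over all genes, higher and lower, were 6 and 17 for U87MGR against U87MGL, 270 and 209 for U87MGR against U87MG, and 438 and 261 for U87MGL against U87MG. In the same order of comparisons they were 1 and 3, 5 and 6, and 0 and 0 (649 and 587 at an unadjusted p under 0.05 in limma) with 2 spike-in sets as a block. With 3 sets they were 0 and 0 (563 and 606 unadjusted), 96 and 135, and 0 and 0 (1111 and 1115 unadjusted). The blocks leave 2 and 1 residual degrees of freedom. With only the 4 arrays compared, 26 were lower in the first comparison, 111 higher and 122 lower in the second, and 124 and 91 in the third. For the first comparison, lower genes numbered 32 with no filter, 6 with the 60th percentile and 11 with the mean of probe sets, and 3 probe sets were higher with every probe set tested, which gave 174 higher in the second. Without 1 array the counts ran from 0 (232 unadjusted in limma) to 8 higher and from 3 to 26 lower, from 1 to 486 higher and from 0 (886 unadjusted in limma) to 391 lower, and from 17 to 883 higher and from 20 to 667 lower.

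With the replicate number as a block, limma called 0 members (0 at an unadjusted p under 0.05), and 188 higher and 175 lower genes of all in U87MGR against U87MG. Deviations of equally numbered arrays from their group means correlated at 0.01, 0.11 and -0.09 across genes for the 3 comparisons, so the numbers are not shown to pair the samples.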
